A study of Homo sapiens with 12 samples.

Results

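The suppressors of cytokine signalling, the SOCS family, comprise SOCS1 to SOCS7 and CISH, and were taken as the rows of the deposited gene table that carry these 8 symbols. All 8 were found among 60099 genes, and all 8 were among the 19944 genes that had enough counts to be tested. RNA was sequenced from Cal27 and HN30, established cell lines of head and neck squamous cell carcinoma (HNSCC), that had received interferon alpha (IFNα) at 0, 20 or 200 ng/ml for 24 h, with 2 replicates of each line and dose. The 12 samples carry the letters A and D (control, 0 ng/ml), B and E (labelled low dose, taken as 20 ng/ml) and C and F (labelled high dose, taken as 200 ng/ml). Letters A to C and D to F each hold every dose once and were taken as the 2 lines, written here as line sets A-C and D-F. The labels do not say which set is Cal27 and which is HN30. Nothing in the labels says that the replicates were separate cultures, so the p-values measure the spread between these samples, which may be technical.

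SOCS proteins are the classical feedback inhibitors of the JAK-STAT pathway, in which a cytokine receptor activates Janus kinases and these phosphorylate the STAT transcription factors. Each SOCS protein has a central SH2 domain that binds phosphotyrosine and a carboxy-terminal SOCS box that binds elongins B and C and recruits a cullin ubiquitin ligase. SOCS1 and SOCS3 also carry a kinase inhibitory region that blocks the Janus kinases directly. CISH, SOCS1, SOCS2 and SOCS3 are known as targets of the STATs that they restrain, whereas SOCS4 to SOCS7 have long amino-terminal regions and are better known for acting on growth factor receptors and adaptor proteins.

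Promoter sequences are shown for SOCS1 and CISH because, of the 5 members with a promoter in the RefSeq table used here (GRCh38.p14), these were the ones that held a searched motif in the bases before the start of transcription that lie outside the deposited gene. The members without an entry were SOCS2, SOCS5 and SOCS7. The search covered both strands for the core of the interferon-stimulated response element (ISRE, found in promoters that type I interferon activates), which is GAAA repeated after a gap of 2 bases, and for the palindromic STAT site TTCNNNGAA, also with 1 base more in its gap. The SOCS1 promoter (chr16:11256205-11256454, minus strand) held the ISRE core from 113 to 104 bases before the start, shown in capitals:
SOCS1: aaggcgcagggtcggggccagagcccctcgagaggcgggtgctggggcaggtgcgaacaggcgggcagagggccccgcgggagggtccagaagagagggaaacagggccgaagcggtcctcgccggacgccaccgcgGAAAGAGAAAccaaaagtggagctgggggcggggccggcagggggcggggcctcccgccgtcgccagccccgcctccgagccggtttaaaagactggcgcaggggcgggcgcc
The CISH promoter (chr3:50611832-50612024, minus strand) held TTCNNNGAA at 4 positions, from 241 to 233, 230 to 222, 129 to 121 and 112 to 104 bases before the start, again in capitals, and the 57 bases nearest the start are left out because they lie inside the deposited gene:
CISH: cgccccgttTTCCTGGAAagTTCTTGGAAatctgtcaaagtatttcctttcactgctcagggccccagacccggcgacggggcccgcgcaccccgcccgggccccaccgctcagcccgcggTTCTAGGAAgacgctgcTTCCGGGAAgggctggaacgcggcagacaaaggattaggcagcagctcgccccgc
Of all 35116 promoters in the table, over the full 250 bases before the start, 3.02% held the ISRE core, 6.57% held TTCNNNGAA and 5.38% held the form with the wider gap. TTCNNNGAA at 4 or more positions was held by 0.0142%, or 5 promoters, with CISH among them. The limit of 4 is the number found for CISH itself, so this share is a description only. The searched bases of SOCS3, SOCS4 and SOCS6 held none of these letters. Only 193 bases for CISH, 244 for SOCS4 and 106 for SOCS6 lay outside the deposited gene and were searched. The shares of all promoters thus rest on more bases than were searched for these members. For SOCS3 the searched bases were chr17:78360926-78361175, upstream of and not adjoining the deposited gene, which ends at 78360077. The other SOCS3 entry lay wholly inside the deposited gene and was not searched. The bases next to the deposited start of SOCS3 were thus not covered. A match is a description of the letters, and binding was not measured here.

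Estimated counts totalled between 10517448 and 16056734 per sample, with 12670755 to 16056734 in the 4 controls and 10517448 to 11854183 in the 4 samples at 200 ng/ml, each of which was shallower than every control. Of 10 interferon-stimulated genes taken to check the labels, all 10 rose at least 2-fold with an edgeR adjusted p of at most 0.05 at both doses. Their log2 fold changes were 2.81 to 7.04 at 200 ng/ml. By that rule 2.14% of all genes changed at 200 ng/ml and 1.15% at 20 ng/ml. Between 200 and 20 ng/ml 0 of the 10 did so, with values of -0.04 to 0.81, and 3 passed the adjusted p at any fold, as did 27 of all 19944 genes. The rise thus tells treated samples from controls, and which dose a treated letter had rests on the labels. Summed over 10 squamous epithelial markers, TPM (transcript abundance per length, scaled to a fixed total in each sample) was 3254 to 3953 in A-C and 1385 to 1702 in D-F, where KRT14 was at 0.254 TPM or less. Markers of other cell types summed to 5.55 to 15.4 TPM for 7 fibroblast genes, 5.34 to 40.6 TPM for 6 leukocyte genes and 0.1 to 21.7 TPM for 4 endothelial genes. The leukocyte gene PTPRC was at 0.0425 TPM or less and the fibroblast gene DCN at 0.121 TPM or less. Most of these sums came from COL1A1, a collagen of the fibroblast list, at 3.43 to 13 TPM, from CD68, which rose at 200 ng/ml, from 5.29 to 10.1 TPM in the controls to 17.4 to 39.6 TPM, and from CDH5, an endothelial cadherin, at 15.2 to 21.7 TPM in A-C and at most 0.156 TPM in D-F. Their part in the results below was not tested.

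At 24 h of IFNα no SOCS family gene reached a 2-fold change with an adjusted p of at most 0.05, at either dose or in either line set. Before any treatment the line sets differed by that rule in 5 of the 8 genes, and in 26.6% of all genes tested. At 200 ng/ml against control, averaged over both sets, 0 of 8 members were called by edgeR's quasi-likelihood test at that rule, against 2.14% of all genes tested (426 of 19944). SOCS7 alone passed the adjusted p without the fold, which 9.55% of all genes did, and 1 of the 8 had an unadjusted p of at most 0.05, as had 23.9% of all genes. The members' log2 fold changes ran from -0.46 to 0.31 with a median of -0.02, and the median of all genes was -0.01. At 20 ng/ml 0 of 8 were called, against 1.15% of all genes, 3 had an unadjusted p of at most 0.05 (16.8% of all genes), and the log2 fold changes ran from -0.49 to 0.32. Between 200 and 20 ng/ml 0 of 8 were called, against 0.0451% of all genes, again with 3 at an unadjusted p of at most 0.05 (9.26% of all genes). DESeq2, run on the same counts, also called 0 members in each of these comparisons.

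**Figure D1:**
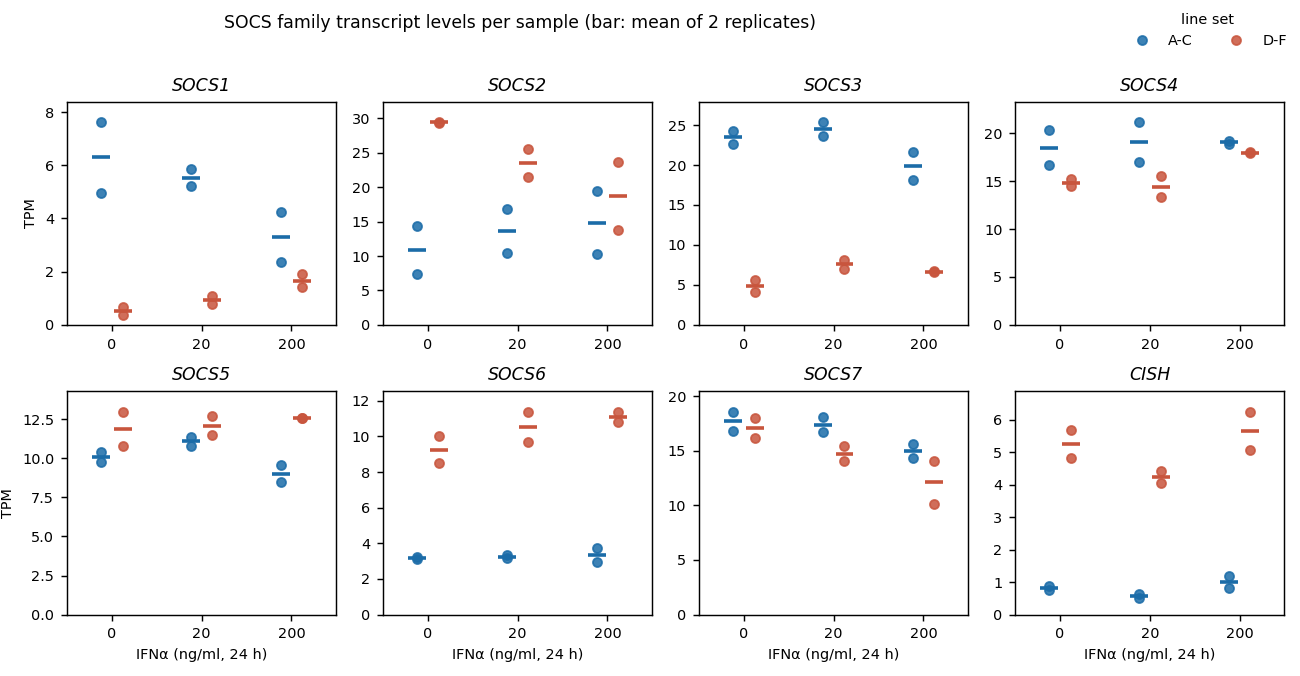
TPM (transcript abundance per length, vertical axis from 0) of each SOCS family gene in each of the 12 samples, by IFNα dose in ng/ml (horizontal axis), with line set A-C in blue and D-F in red. Points are samples and bars are means of 2 replicates. The sets lie apart for SOCS1, SOCS3, SOCS6 and CISH at every dose, and SOCS7 is lower at 200 ng/ml than in the controls of both sets.

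The order of the members by level, per length in TPM, differed between the line sets. In untreated A-C, SOCS3 was highest at 23.5 ± 1.2 TPM (SD, n = 2), followed by SOCS4 at 18.5 ± 2.57 and SOCS7 at 17.7 ± 1.27, whose replicates overlapped. SOCS2 at 10.8 ± 4.91 and SOCS5 at 10.1 ± 0.463 came next and overlapped each other, and SOCS2 also overlapped in range the replicates of SOCS1, at 6.3 ± 1.88. SOCS6 at 3.17 ± 0.0882 and CISH at 0.813 ± 0.0722 were lowest and stood apart from every other member. In untreated D-F, SOCS2 was highest at 29.4 ± 0.0823 TPM, followed by SOCS7 at 17.1 ± 1.28 and SOCS4 at 14.9 ± 0.542, each apart from the next. SOCS5 at 11.9 ± 1.61 and SOCS6 at 9.28 ± 1.07 were apart from each other, CISH at 5.25 ± 0.601 and SOCS3 at 4.88 ± 1.05 overlapped, and SOCS1 was lowest at 0.524 ± 0.208. SOCS3 therefore ranked first of 8 in A-C and 7 of 8 in D-F, and SOCS2 ranked 4 of 8 in A-C and first in D-F.

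SOCS1 (ENSG00000185338, chr16:11254405-11256179, minus strand, GRCh38), a potent inhibitor of interferon receptor signalling, was measured at 7.63 and 4.97 TPM in the A controls, 5.85 and 5.21 TPM at 20 ng/ml (B) and 4.26 and 2.36 TPM at 200 ng/ml (C). In D-F it was at 0.376 and 0.671 TPM in the controls, 0.801 and 1.08 TPM at 20 ng/ml (E) and 1.42 and 1.91 TPM at 200 ng/ml (F). Both C samples were below both A samples, and both F samples were above both D samples. The counts behind the D-F values were few, 4 and 8 in the controls and 12 and 16 at 200 ng/ml, where 3 counts are the limit that a count of 0 allows, and 62 to 73 in A against 18 to 38 in C. With 200 ng/ml the log2 change from control came to -0.90 (SE 0.39, 95% interval -1.77 to -0.02, edgeR adjusted p = 0.211) in A-C and 1.52 (SE 0.51, 0.38 to 2.67, adjusted p = 0.123) in D-F. The difference between these responses was 2.42 (SE 0.64, 0.98 to 3.86, adjusted p = 0.092) and did not pass the test. Leaving out each sample in turn gave 2.01 to 2.97 with an adjusted p of 0.0549 to 0.283. The averaged change of 0.31 (SE 0.32, -0.41 to 1.04) was made of these opposite values, so it describes neither set. The lower dose gave -0.19 (SE 0.37) in A-C and 0.81 (SE 0.54) in D-F. RMI2, a subunit of a DNA helicase complex, overlaps SOCS1 on the opposite strand and was at 17.6 to 19.1 TPM in D and 34.8 to 38 TPM in F, with a log2 fold change of 0.83 (adjusted p = 0.0795), against -0.07 (adjusted p = 0.924) in A-C. The libraries marked strand, but the strand setting of the counting is not given in the sources used here, and the part of RMI2 reads in the SOCS1 counts was not tested.

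SOCS3 (ENSG00000184557, chr17:78356778-78360077, minus strand), which binds the shared cytokine receptor chain gp130 and JAK kinases and limits interleukin-6 signalling, was at 24.3 and 22.6 TPM in A, 23.6 and 25.4 TPM in B and 18.1 and 21.6 TPM in C. In D-F it was at 5.62 and 4.14 TPM in D, 8.12 and 7.01 TPM in E and 6.61 and 6.72 TPM in F. All 6 samples of A-C were thus above all 6 of D-F, and within the sets C lay below A while E and F lay above D. At 200 ng/ml the log2 fold change was -0.23 (SE 0.15, adjusted p = 0.396) in A-C and 0.36 (SE 0.16, adjusted p = 0.252) in D-F, and the difference of 0.59 (SE 0.21, 95% interval 0.11 to 1.08, adjusted p = 0.189) did not pass. At 20 ng/ml it was 0.06 (SE 0.14) in A-C and 0.56 (SE 0.16, 0.21 to 0.91, adjusted p = 0.102) in D-F, and averaged 0.31 (adjusted p = 0.166). At 200 ng/ml the averaged value was 0.07 (SE 0.11), and its 95% interval of -0.17 to 0.31 lay inside the 2-fold limits in both directions.

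CISH (ENSG00000114737, chr3:50606490-50611831, minus strand), the founding member of the family and a target of STAT5, was at 0.864 and 0.762 TPM in A, 0.643 and 0.496 TPM in B and 0.815 and 1.19 TPM in C. It was at 5.68 and 4.83 TPM in D, 4.05 and 4.41 TPM in E and 6.25 and 5.07 TPM in F. In both sets the 20 ng/ml samples were the lowest, below both controls. The log2 fold change at 20 ng/ml was -0.49 in each set (SE 0.27 in A-C and 0.24 in D-F), and averaged -0.49 (95% interval -0.89 to -0.09) with an adjusted p of 0.195. At 200 ng/ml it was 0.32 (SE 0.26) in A-C and -0.39 (SE 0.24) in D-F, and averaged -0.03 (-0.43 to 0.36, adjusted p = 0.976). In D-F at 200 ng/ml counts and TPM did not point the same way for CISH, since counts were 155 and 156 in D and 97 and 93 in F while TPM overlapped.

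SOCS2 (ENSG00000120833, chr12:93569814-93583487, plus strand), an inhibitor of growth hormone receptor signalling, was at 7.33 and 14.3 TPM in A, 10.4 and 16.9 TPM in B and 19.4 and 10.3 TPM in C. It was at 29.4 and 29.5 TPM in D, 21.5 and 25.5 TPM in E and 23.6 and 13.8 TPM in F. The replicates of A, B and C overlapped in TPM, and the E and F samples all lay below the D samples. By depth-normalised counts the C samples were both above the A samples. The response to 200 ng/ml on the log2 scale was 0.43 (SE 0.20, adjusted p = 0.233) in A-C and -0.46 (SE 0.19, adjusted p = 0.221) in D-F. The difference of -0.89 (SE 0.27, 95% interval -1.50 to -0.28, adjusted p = 0.132) did not pass. The lower dose gave 0.57 (SE 0.19, adjusted p = 0.25) and -0.27 (SE 0.19, adjusted p = 0.58), with a difference of -0.83 (SE 0.27, adjusted p = 0.303).

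**Figure D2:**
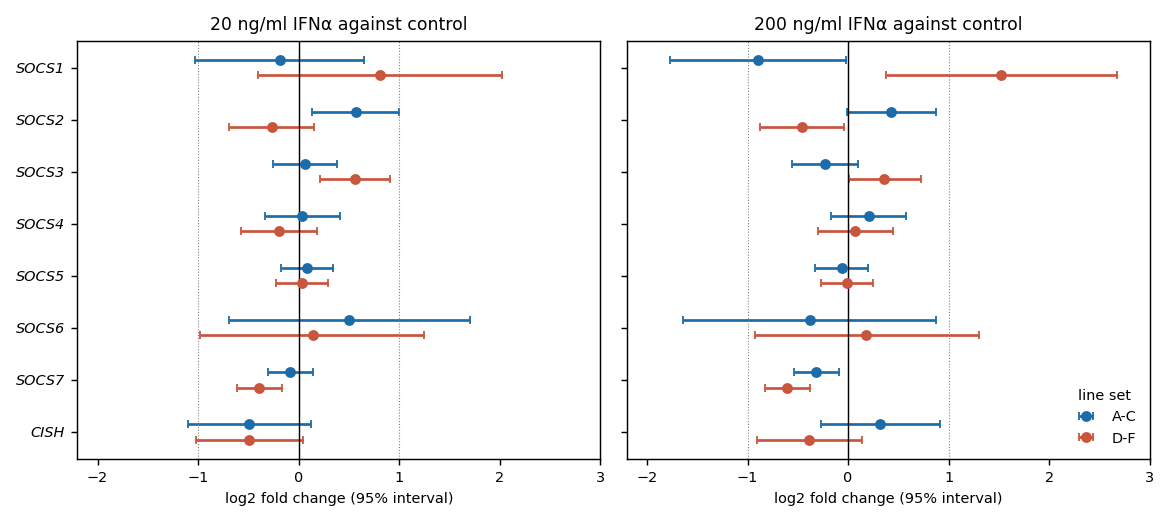
Fitted log2 fold change (horizontal axis, with 95% interval) of each SOCS family gene at 20 ng/ml (left) and 200 ng/ml (right) IFNα against control, in line set A-C (blue) and D-F (red), with 2 samples per group. Dotted lines mark a 2-fold change, and at 200 ng/ml SOCS1 lies at -0.90 in A-C and 1.52 in D-F while SOCS7 lies below 0 in both.

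SOCS7 (ENSG00000274211, chr17:38352228-38405593, plus strand), which binds adaptor proteins such as NCK, was the only member to pass the adjusted p at 200 ng/ml, at less than 2-fold, where 9.55% of all genes passed at any fold. It was at 16.8 and 18.6 TPM in A, 16.7 and 18.1 TPM in B and 15.6 and 14.3 TPM in C, and at 16.2 and 18 TPM in D, 14.1 and 15.4 TPM in E and 10.1 and 14.1 TPM in F. All 4 samples at 200 ng/ml lay below both controls of their set, and both E samples lay below both D samples. SOCS7 fell 1.38-fold at 200 ng/ml, a log2 fold change of -0.46 (SE 0.07, 95% interval -0.62 to -0.30, edgeR adjusted p = 0.00353). In D-F the log2 fold change was -0.61 (SE 0.10, adjusted p = 0.00655), in A-C it was -0.32 (SE 0.10, adjusted p = 0.0903), and the difference between the sets of -0.29 (SE 0.14, adjusted p = 0.325) did not pass. At 20 ng/ml the averaged value was -0.24 (SE 0.07, adjusted p = 0.111), and 200 against 20 ng/ml gave -0.23 (SE 0.07, adjusted p = 0.37). The averaged value at 200 ng/ml still passed with each sample left out in turn (-0.51 to -0.42) but not in a limma test on log2(TPM + 0.1), which gave -0.38 (adjusted p = 0.126). The D-F value no longer passed without D2 (-0.58), without F1 (-0.56) or in the limma test (-0.51, adjusted p = 0.184).

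SOCS4 (ENSG00000180008, chr14:55027230-55049488, plus strand) and SOCS5 (ENSG00000171150, chr2:46698952-46763129, plus strand), which act on the epidermal growth factor receptor, and SOCS6 (ENSG00000170677, chr18:70288901-70330200, plus strand), which acts on receptor tyrosine kinases such as KIT, showed no change past the test at either dose. SOCS4 ranged from 13.4 to 21.2 TPM over the 12 samples, with a log2 fold change at 200 ng/ml of 0.14 (SE 0.12, 95% interval -0.13 to 0.41). SOCS5 ranged from 8.46 to 13 TPM, and its value of -0.04 (SE 0.08, -0.22 to 0.15) was the most tightly bounded apart from that of SOCS7. SOCS6 gave -0.10 with a wide interval of -0.94 to 0.74, and the value moved to -0.87 (adjusted p = 0.11) without C2 and to 0.27 (adjusted p = 0.568) without C1. Its counts in A-C ran from 25 to 175 although its TPM stayed between 2.95 and 3.72. For SOCS5, unannotated loci assembled from the reads overlap the gene on the same strand, and how reads were shared between them was not tested.

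By set, 0 of 8 members were called at 200 ng/ml in A-C (2.18% of all genes) and 0 of 8 in D-F (2.09%, or 5.84% without the 2-fold minimum, which SOCS7 passed). Likewise 0 of 8 were called at 20 ng/ml in A-C (0.712%) and 0 of 8 in D-F (1.41%). For the difference of the responses between the sets, 0 of 8 were called at 200 ng/ml (0.998%) and 0 of 8 at 20 ng/ml (0.231%). At an unadjusted p of at most 0.05 the counts at 200 ng/ml were 2 of 8 in A-C (22.3% of all genes) and 4 of 8 in D-F (18.7%). The counts at 20 ng/ml were 1 of 8 in A-C (12.3%) and 2 of 8 in D-F (15.2%), and for the differences they were 3 of 8 at 200 ng/ml (17.7%) and 2 of 8 at 20 ng/ml (10.5%). These comparisons share their control samples by dose, so their counts are not independent. DESeq2 called 0 members in each of these comparisons too, and gave no adjusted p for SOCS1 and CISH in the difference at 200 ng/ml.

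In contrast to the doses, the untreated line sets differed in 5 of 8 members, with 3 higher and 2 lower in D than in A, where 26.6% of all genes were called. SOCS1 was 12.3-fold lower in D (log2 fold change -3.62, SE 0.48, adjusted p = 0.000163) and SOCS3 5.24-fold lower (-2.39, SE 0.15, adjusted p = 2.48e-06). By counts CISH was 3.87-fold higher (1.95, SE 0.25, adjusted p = 0.000173), SOCS6 3.68-fold (1.88, SE 0.52, adjusted p = 0.0156) and SOCS2 2.4-fold (1.26, SE 0.19, adjusted p = 0.000517). Per length, in TPM, the ratio for CISH was larger, at 6.46, and the limma test on log2(TPM + 0.1) gave a difference of 2.55 on the log2 scale. The TPM ratio was 2.72 for SOCS2 and, smaller than by counts, 2.93 for SOCS6. SOCS6 had 82 counts in A2 against 147 in A1, at 3.11 and 3.23 TPM. The 2 members lower in D, SOCS1 and SOCS3, are those that carry the kinase inhibitory region, a match that was not tested. SOCS4 (-0.27, SE 0.17, adjusted p = 0.223), SOCS5 (0.05, SE 0.12, adjusted p = 0.741) and SOCS7 (-0.15, SE 0.10, adjusted p = 0.233) did not pass. The SOCS6 call was lost without A2 (1.40, adjusted p = 0.109), without D1 (1.76, adjusted p = 0.0624) and with the replicate number as a block (1.96, adjusted p = 0.0501), and without A1 its value was 2.56 (adjusted p = 0.0162). SOCS2 fell short of 2-fold without A1 (0.98, adjusted p = 0.00226), and SOCS1, SOCS3 and CISH were called in every alternative. Overlapping neighbours on the opposite strand also differed, with MAPKAPK3, which overlaps CISH, at 1.15 (adjusted p = 0.00134) and SOCS2-AS1, which overlaps SOCS2, at 1.46 (adjusted p = 0.00446). RMI2, which overlaps SOCS1, was higher in D at 0.68 (adjusted p = 0.0426), while SOCS1 was lower in D. The part of these neighbours in the CISH, SOCS2 and SOCS1 counts was not tested.

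The transcripts showed how the gene levels were composed. The deposited transcript table held 31 transcripts of the 8 genes, 28 of them protein coding in GENCODE release 29, and 22 passed the filter on low counts. At 200 ng/ml 0 of the 22 were called, against 0.494% of all 75876 transcripts tested, with SOCS7-201 nearest at a log2 fold change of -0.52 (adjusted p = 0.234). At 20 ng/ml 0 of the 22 were called, against 0.303% of all transcripts, with a smallest adjusted p of 0.755. SOCS1 had a single listed transcript, and SOCS3 was assigned wholly to SOCS3-201.

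For CISH the line sets differed in the transcript to which reads were assigned. The coding transcript CISH-201 was listed at 0 TPM in all 6 samples of A-C and at 2.42 to 5.68 TPM in the 6 samples of D-F. The whole CISH level in A-C, 0.5 to 1.19 TPM, was assigned to CISH-203, a retained-intron transcript of 5042 bases that was at 0.57 to 2.41 TPM in D-F. In D-F at 200 ng/ml CISH-201 was at 5.68 and 3.99 TPM and CISH-203 at 0.57 and 1.08 TPM, against 3.55 and 2.42 TPM and 2.04 and 2.41 TPM in D. Both F samples thus had more CISH-201 and less CISH-203 than both D samples, and neither transcript was called over both sets.

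SOCS6 counts followed the transcript to which its reads were assigned. In 10 of 12 samples nearly all SOCS6 TPM lay in SOCS6-201, of 5848 bases, but in A2 all 3.11 TPM lay in SOCS6-203 (2625 bases) and in C1 all 3.72 TPM lay in SOCS6-202 (894 bases). Those were the samples with the fewest SOCS6 counts, 82 and 25, against 107 to 175 in the other 4 samples of A-C. SOCS2 had 12 transcripts and 5 different leading ones across the 12 samples, for example SOCS2-202 in D1 (18.4 TPM) and SOCS2-209 in D2 (15.9 TPM) at nearly equal gene levels. Replicates of 1 group therefore differed in the SOCS2 transcript that led, and no order of its transcripts was read from these values. The assignment also moved between replicates for SOCS5 and SOCS4. SOCS5-201 held 29.2% of SOCS5 TPM in C1 and 100% in C2, and SOCS4-201 held 20% of SOCS4 TPM in A1 and 0.239% in A2. What such moves did to the counts and fold changes of SOCS2, SOCS4 and SOCS5 was not tested.

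**Figure D3:**
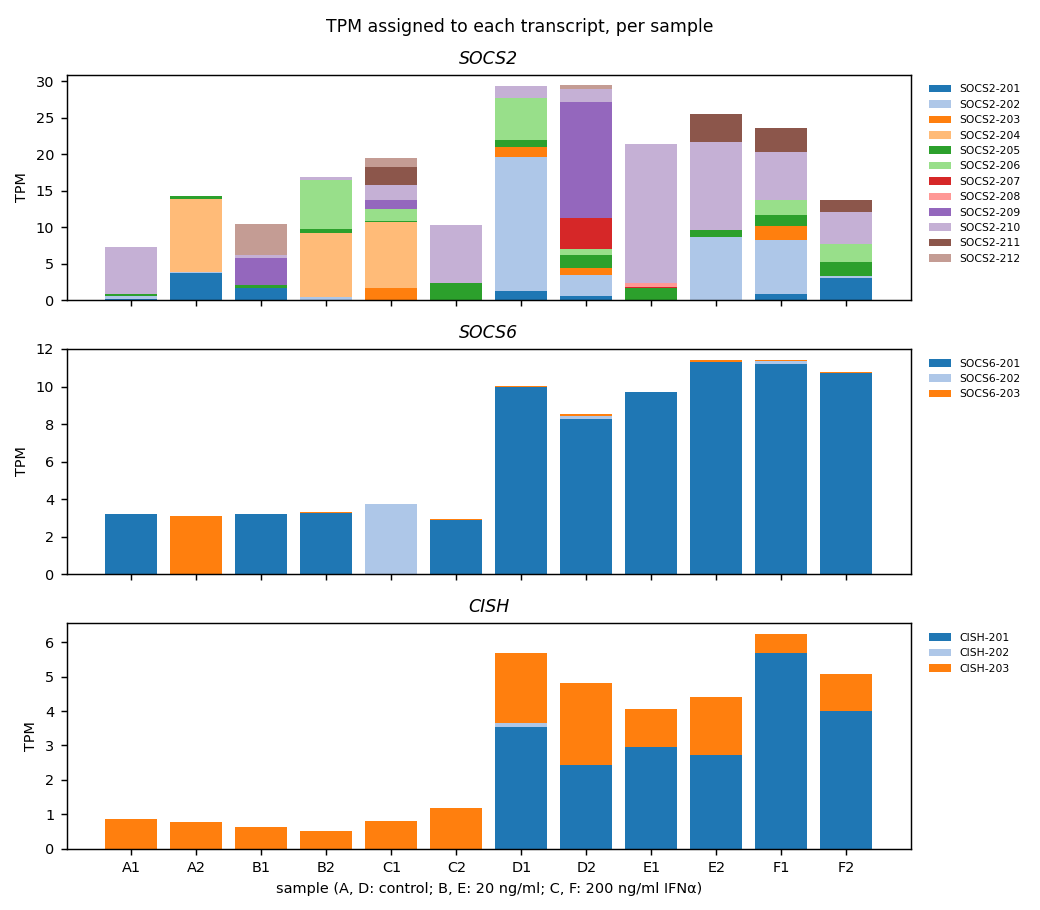
TPM assigned to each annotated transcript (stacked colours, vertical axis from 0) of SOCS2, SOCS6 and CISH in each of the 12 samples (horizontal axis). SOCS2 changes its leading transcript between replicates, SOCS6 is assigned to SOCS6-203 in A2 and SOCS6-202 in C1, and CISH-201 appears in the 6 D-F samples and in none of A-C.

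Other genes of the pathway were taken from lists by role, and 2.14% of all genes tested were called at 200 ng/ml against control. None of the 6 ubiquitin ligase partners of the SOCS box (elongins B and C, cullins and RING proteins) was called at 200 ng/ml, and their log2 fold changes ran from -0.27 to 0.23. On the list of the type I interferon receptor, its kinases and its transcription factors, IRF9 rose by 2.69 (SE 0.13) and STAT2 by 1.80 (SE 0.08), and the receptor chains and kinases lay between -0.11 and 0.10. Of the 7 other JAK kinases and STATs 0 were called, and of 16 other cytokine receptor chains, 14 of which were tested, 0 were called.

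Among 13 other negative regulators of the pathway, 2 were called at 200 ng/ml, both higher, against 2.14% of all genes, and the remaining 11 lay within 2-fold. ISG15, a ubiquitin-like modifier that stabilises USP18, rose by 4.20 (SE 0.15, adjusted p = 1.88e-07), and USP18, which displaces JAK1 from the interferon receptor, rose by 4.16 (SE 0.11, adjusted p = 1.37e-08). USP18 rose in each set, by 3.54 (SE 0.14) in A-C and 4.78 (SE 0.16) in D-F, with a difference of 1.24 (SE 0.21, adjusted p = 0.0252). At 24 h ISG15 was thus 18.4-fold and USP18 17.9-fold higher. The 95% intervals of SOCS1 at that dose were -1.77 to -0.02 in A-C and 0.38 to 2.67 in D-F on the log2 scale, and those of SOCS3 were -0.56 to 0.10 and 0.01 to 0.72. Of 15 cytokines that signal through JAK kinases, 11 were tested and 1 was called, IL6, a ligand upstream of SOCS3, which rose by 1.81 (SE 0.17, adjusted p = 0.000142), with 1.08 (SE 0.21) in A-C and 2.54 (SE 0.25) in D-F and a difference of 1.46 (SE 0.33, adjusted p = 0.0606) that did not pass.

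**Figure D4:**
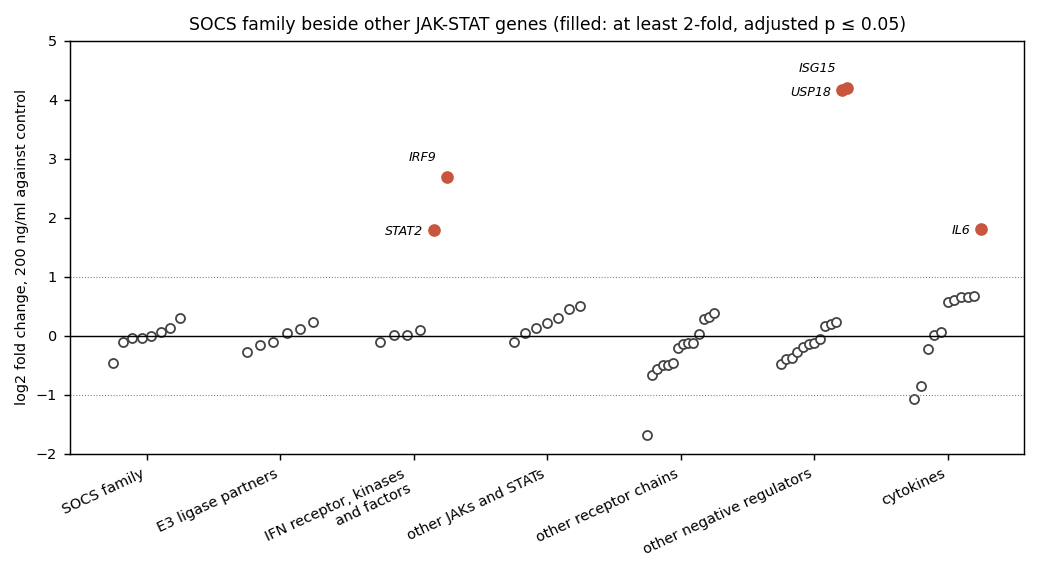
Fitted log2 fold change at 200 ng/ml against control, averaged over both line sets (vertical axis), for the SOCS family and tested genes of 6 lists of JAK-STAT genes (horizontal axis, genes ordered by value within a list). Filled red points were at least 2-fold with an adjusted p of at most 0.05, and all 8 SOCS genes lie between -0.46 and 0.31 while ISG15 and USP18 lie above 4.

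The genes most like SOCS1 in their pattern over the 12 samples, by Pearson r of log2(TPM + 0.1) centred within each line set over the 13033 genes whose mean count was 50 or more, were GPR176 (0.93), MFN2 (0.92) and ILK (0.92). Those most like SOCS3 were MLXIP (0.95), TWNK (0.94) and PIP5K1A (0.92). These are the highest of many correlations over samples that share libraries and doses, and they are given as a description.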

How the data were processed

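LncRNA sequencing libraries from HNSCC lines were rRNA-depleted and strand-specific per the labels. The submitters' processing notes name Trimmomatic 0.36, HISAT2 2.1.0, StringTie 1.3.3b and GRCh38.p10, without their roles; annotation release and counting strand are not given in the sources used here. The authors deposited estimated counts (whole numbers), TPM and FPKM for every gene and transcript and sample. FPKM was not used.

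The samples were grouped by the letter in their titles. Counts were fitted with edgeR 4.0.16 (quasi-likelihood, TMM, filterByExpr, R 4.3.3) over all 12 samples with the 6 letters as groups, and p-values were adjusted by Benjamini-Hochberg over all genes or transcripts tested. A gene was called at a fold change of at least 2 and an adjusted p of at most 0.05, and passed at that p at any fold. Standard errors are Wald errors of the fitted log2 fold change. TPM was used to compare genes. Alternatives were RLE scaling, no low-count filter, a replicate block, DESeq2 1.42.0, the compared letters only, each sample left out, and no minimum fold; limma 3.58.1 on log2(TPM + 0.1) was added after seeing the data. Scripts were tested on simulated data. Totals of 10517448 to 16056734 counts limit the precision for low genes, and floors of 3 counts cover counting error only.

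The members, the pathway lists and the tests were chosen with earlier results of these data known. Named were the 8 members, their tested transcripts, up to 3 called genes of largest change per pathway list, overlapping or adjacent genes within 10 kb that bear on a member, cell type markers, and the 3 genes most like SOCS1 and SOCS3. An item of the lists is not reported here. Values of the list genes chosen in this way are descriptions. Promoters came from RefSeq, with 5 members matched and 3 not.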

Additional observations from a re-analysis of the deposited data

Results flagged for a closer look

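For 3 members, all samples of line set A-C moved one way from control and all samples of D-F moved the opposite way at 200 ng/ml by normalised counts, without the difference passing the edgeR test. These were SOCS1 (difference of log2 fold changes 2.42, adjusted p = 0.092), SOCS2 (-0.89, adjusted p = 0.132) and SOCS3 (0.59, adjusted p = 0.189). SOCS2 also did so at 20 ng/ml (-0.83, adjusted p = 0.303). Each rests on 2 samples per letter, and for SOCS1 in D-F on 4 to 16 counts per sample. In TPM the SOCS2 replicates of A, B and C overlapped. Groups of 2 samples were too small for a check of single outlying samples.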

How the results depend on the processing

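Of 224 alternative counts of called members or transcripts, 222 stayed within 1.5 times the reported count. The others were SOCS7 passing at 200 ng/ml once the 2-fold minimum was dropped, which made the count 1 in place of 0 averaged over the sets and 1 in place of 0 in D-F. Leaving out each sample in turn kept every count under IFNα at 0, and the count of members that differed between the untreated sets at 4 to 5. Of 1439 alternative values of single members, 1431 kept their side of the test, 7 lost it, 1 gained it (SOCS7 at 20 ng/ml in D-F by DESeq2, -0.39, adjusted p = 0.0439), and none that passed reversed, while 50 that passed in neither fit changed sign. SOCS2 kept its p between the untreated sets without A1 but fell short of 2-fold (0.98). Those that lost it were SOCS7 at 200 ng/ml (in limma on TPM, and in D-F without D2, without F1 and in limma) and SOCS6 between the untreated sets. Same-numbered samples did not deviate together (r -0.0306 to 0.0479), so the numbers were not taken to pair them, and with the replicate block the counts stayed at 0 under IFNα and fell to 4 between the untreated sets, where SOCS6 was at 1.96 (adjusted p = 0.0501). Depth limits SOCS1 in D-F and CISH in A-C, and 2 samples per letter limit every within-set value. Why some values no longer passed was not tested.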

Other observations

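At 20 ng/ml IRF9, STAT2, ISG15, USP18 and IL6 were called, as they were at 200 ng/ml. In line set D-F at 200 ng/ml LIF, an IL6-family cytokine, was also called, at a log2 fold change of 1.08 (SE 0.10, edgeR adjusted p = 0.000271), against 0.06 (SE 0.10) in A-C, and the difference between the sets was 1.02 (SE 0.15, adjusted p = 0.0131). PTPN11, a phosphatase that binds phosphotyrosine like the SOCS proteins, fell by 0.48 on the log2 scale at 200 ng/ml (SE 0.05, edgeR adjusted p = 0.000406), and PIAS3, an inhibitor of STAT3, fell by 0.40 (SE 0.09, adjusted p = 0.0208), both by less than 2-fold. JAK2 (0.50, SE 0.10, adjusted p = 0.0123) and STAT6 (0.30, SE 0.05, adjusted p = 0.00905) rose by less than 2-fold, as did the receptor chains IL6ST (0.28, SE 0.05, adjusted p = 0.0124) and OSMR (0.32, SE 0.05, adjusted p = 0.00434). These genes were chosen after their values were seen.

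Between the untreated line sets, the receptor chains IL6ST (-1.31, SE 0.08, adjusted p = 1.43e-06) and IL6R (-4.13, SE 0.31, adjusted p = 9.19e-06) were lower in D than in A, as was the cytokine IL6 itself (-2.51, SE 0.25, adjusted p = 3.57e-05). SOCS3, which limits signalling from this receptor, was lower in D as well, and a link between these genes was not tested. Of the 14 receptor chains tested, 4 were called lower in D and 1 higher, and of 11 cytokines 3 lower and 2 higher. The share of all genes called was 26.6%. OSMR, another receptor chain, was at 95.8 and 94.2 TPM in D against 89.5 and 84.2 TPM in A.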
